A study of Bos taurus with 16 samples.

Results

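The effect of shCreb5 on superficial zone articular chondrocytes kept in TGFα without TGFβ2 was examined across all measured genes. The comparison took 8 of the 16 RNA-Seq libraries of the series, 4 with shScramble and 4 with shCreb5, chosen by their labels, and each shCreb5 library was set against the shScramble library of the same calf. The chondrocytes came from the knees of 4 calves in their first weeks of life, were infected with a lentivirus encoding a scrambled shRNA, termed shScramble, or one directed at Creb5, termed shCreb5, and were selected in 0.8 µg/ml puromycin for 5 days. They were then held for 2 days on low attachment plates in serum-containing medium with 100 ng/ml TGFα, a ligand of the EGF receptor; this is condition A. In the other 8 libraries, condition AB, the same medium also held 20 ng/ml TGFβ2. Both arms of each comparison therefore carried a lentivirus and had passed puromycin selection, a single shRNA stood for the knockdown, and the cells of a calf were infected and selected before they were divided between the media, so the conditions share infections as well as animals.

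CREB5 belongs to the CREB/ATF family of basic leucine zipper transcription factors. The superficial zone is the outermost layer of articular cartilage, the one that faces the joint cavity, and its cells make lubricin, the boundary lubricant encoded by PRG4. EGF receptor and TGFβ signaling are both known to keep PRG4 expressed there, and in these 8 libraries the EGF receptor was stimulated while no TGFβ2 was added.

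In condition A, 18719289 to 21853634 counts per library were assigned to genes, and 15585 to 16368 genes had at least 1 count. Of the 19454 genes in the table, 12922 had enough counts for edgeR's quasi-likelihood test, in which the calf was a block. None passed a Benjamini-Hochberg adjusted p of 0.05, the smallest adjusted p being 0.206, while 1144 genes (8.85%) had an unadjusted edgeR p under 0.05, 574 of them higher (4.44%) and 570 lower (4.41%) with shCreb5. DESeq2's Wald test, the test of the study, with the calf as a covariate, gave 79 genes an adjusted p under 0.05, which is 0.63% of the 12533 genes to which it gave an adjusted p. Of these 79, 33 were higher (0.263%) and 46 lower (0.367%). All 79 had the same sign and an unadjusted p under 0.05 in edgeR. Below, "rose" and "fell" are used of genes that passed in DESeq2, none of which passed in edgeR. All fold changes are edgeR's. Their standard errors are not reported by edgeR and were derived from the fold change and the F statistic of its test.

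The number of calls depended on which calves were in the fit. DESeq2 called 213 genes without calf 1, 45 without calf 2, 21 without calf 3 and 22 without calf 4, and of the 79 genes called with all calves 56, 31, 17 and 14 were called in these fits. Of the 79, 9 passed in each of the 4 fits, among them PI3, LOC407163, the carboxypeptidase M gene, KCNE4, ANOS1, GDF10, MMP3 and PRG4. In contrast, 15 passed in none of them: EPHA3, NCALD, HTRA3, SPRY4, PAMR1, PLPPR4, SDC1, CSTB, FAT1, AASS, MYO10, MCFD2, RBMS2, RCN1 and a gene without a symbol. The log2 fold changes ranged from -3.17 for SCG2 to 3.17 for a gene without a symbol, with a median size of 0.79, and 24 of the 79 were at least 1 in size (11 higher, 13 lower). Over all 12922 genes the median log2 fold change was -0.00027.

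**Figure D1:**
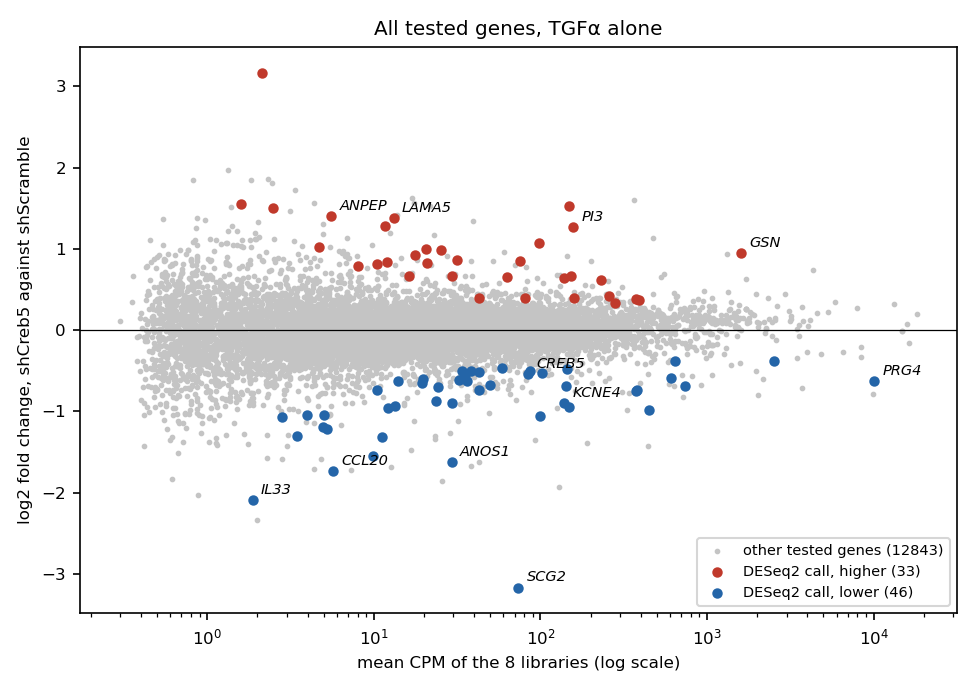
Log2 fold change of shCreb5 against shScramble (vertical axis) against the mean level over the 8 libraries in scaled counts (CPM, log axis) for each of the 12922 genes tested in TGFα alone. The 33 genes that rose are in red and the 46 that fell in blue, and they lie across the range of levels.

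Symbols were at hand for 3120 of the tested genes, mostly from tables sorted by significance, and so favour genes that changed: 2.31% of the tested genes with a symbol were called by DESeq2, and 16.4% were higher and 16.9% lower with an unadjusted edgeR p under 0.05. Of the 79 called genes 72 had a symbol, 27 higher and 45 lower. Each of the 72 moved in the same direction in 4 of 4 calves, which a test on these pairs with the calf as a covariate favours. Of all tested genes, 9.76% were higher and 8.58% lower in 4 of 4 calves. That share was larger among the 3120 tested genes with a symbol, of which 667 were higher and 613 lower in 4 of 4 calves. By the sign of the fold change, 1551 of the 3120 were higher and 1569 lower. Lists of genes are described below by how many of their measured members were higher or lower, against these background shares. Members without a symbol were not examined, and some lists were measured only in small part. This was so for 5 of 19 genes of the Hippo list, 10 of 32 of the Wnt list, 4 of 10 of the EGF receptor list and 5 of 21 of the interferon list. The levels of the 2 groups did not overlap for 11 of the 79 genes, against 1.01% of all tested genes (0.549% higher and 0.464% lower). Among these, the carboxypeptidase M gene, HMGA1, SPAG17, IFI27L2 and a gene without a symbol were higher in every shCreb5 library than in any shScramble library, and PHLDA1, HBEGF, NCALD, ITM2C and FGF2 were lower in every one.

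CREB5, the target of the shRNA, had 131, 75.4, 83.5 and 111 CPM in calves 1 to 4 with shScramble and 90.6, 47.3, 61.8 and 77.3 CPM with shCreb5. CPM are counts scaled to library size with TMM factors over the 8 libraries. Every calf had less CREB5 with shCreb5, but the groups overlapped, since calf 1 kept more CREB5 with shCreb5 than calves 2 and 3 had with shScramble. The log2 fold change was -0.54 (standard error 0.08, edgeR adjusted p = 0.337, DESeq2 adjusted p = 6.99e-05), and an exact two-sided sign-flip test over the 4 calves gave the smallest p that 4 pairs allow, which is above 0.05. PRG4 had 13292, 4548, 20308 and 10154 CPM with shScramble and 8915, 2607, 14719 and 6355 CPM with shCreb5. It fell in each calf, with log2 ratios of -0.58, -0.80, -0.46 and -0.68, although the calves themselves differed widely in level, and its log2 fold change was -0.63 (standard error 0.13, edgeR adjusted p = 0.502, DESeq2 adjusted p = 8.77e-07). As these are bulk libraries, fewer cells expressing a gene and less RNA per cell cannot be told apart here or below.

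Among 12 measured genes of the superficial zone and joint surface, 9 were lower and 3 higher, with a median log2 fold change of -0.57. The lower ones include CREB5, the target of the shRNA, and GDF10, FAT4 and WIF1, which the study chose on the same libraries. The direction of these members was known before the list was counted. CREB5, PRG4, GDF10 and FAT4 fell, and CD44, the hyaluronan receptor, rose (log2 fold change 0.62, from 182 ± 33.8 to 281 ± 58.1 CPM as mean ± SD of 4 calves). MFGE8, a secreted glycoprotein of these cells, and VIM, which encodes vimentin, were higher in 4 of 4 calves without passing DESeq2 (log2 fold changes 0.36 and 0.44, adjusted p 0.0786 and 0.06). GDF5, a joint-forming growth factor, was lower in 3 of 4 calves (-0.56) and CLU, which encodes clusterin, in 4 of 4 (-0.27), neither passing in DESeq2. In calf 2, however, CLU was almost unchanged, at 3394 CPM with shScramble and 3393 CPM with shCreb5.

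**Figure D2:**
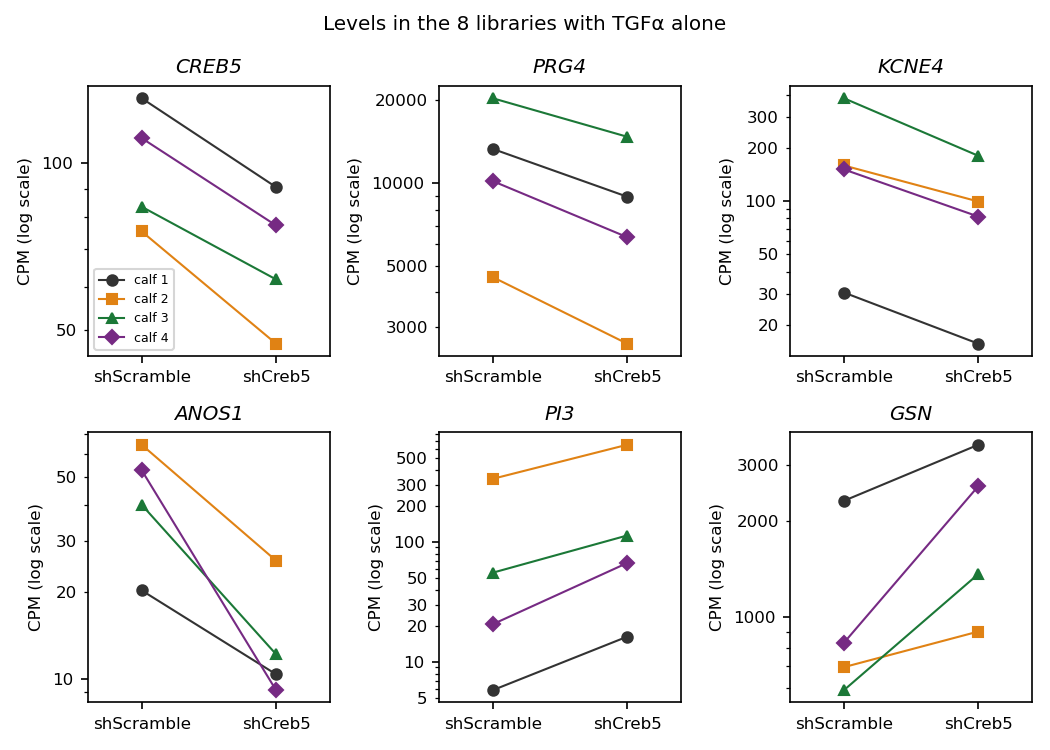
CPM on log axes of 6 genes in the 8 libraries of condition A, with a line joining the shScramble and the shCreb5 library of each calf. CREB5, PRG4, KCNE4 and ANOS1 go down and PI3 and GSN go up in each of the 4 calves.

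Of 4 genes of the elafin family of secreted protease inhibitors, a family chosen after its values were seen, 3 rose. PI3 encodes elafin, a small inhibitor of neutrophil elastase, and had 5.82, 336, 55.4 and 20.6 CPM with shScramble and 16.2, 645, 113 and 66.7 CPM with shCreb5. It rose in each calf although calf 2 had far more of it than the others (log2 fold change 1.27, standard error 0.14, DESeq2 adjusted p = 7.81e-11). LOC407163, annotated as trappin 5 of the same family, had 0.0849, 5.18, 12.04 and 9.86 CPM with shScramble and 0.291, 12.1, 27.2 and 25.9 CPM with shCreb5. It also rose in each calf, with the smallest edgeR p of all genes (log2 fold change 1.28, standard error 0.12, edgeR adjusted p = 0.206), but calf 1 had only 2 and 6 counts of it. LOC100850808, an elafin-like gene, was higher in 4 of 4 calves (1.04, DESeq2 adjusted p = 0.0858), and ENSBTAG00000020813, for which elafin is listed as the human homologue, rose overall (0.83) while being higher in 3 of 4 calves. In the RefSeq annotation LOC100850808, LOC407163 and PI3 follow one another on the chromosome. The members of this family resemble one another and reads can be divided between them, so the values of single members are uncertain.

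Other genes for proteases and their inhibitors moved in both directions. Of 13 measured members of a list of matrix proteases and inhibitors, 7 were higher and 6 lower, 4 rose and 2 fell. PI3 is in this list and counts among those that rose. PAMR1, CSTB and ANPEP, described below, are not in it. Carboxypeptidase M, a membrane enzyme that removes C-terminal basic residues from peptides and whose gene symbol is CPM, had 13.97, 25.6, 24.3 and 26.8 scaled counts with shScramble and 28.97, 45.1, 50.4 and 38.5 with shCreb5. No shCreb5 library was as low as any shScramble library (log2 fold change 0.86, DESeq2 adjusted p = 2.05e-05). PAMR1, a secreted protein with a peptidase domain, had 1.44, 0.508, 0.168 and 1.24 CPM with shScramble and 3.83, 1.49, 1.04 and 3.08 CPM with shCreb5. It rose in each calf, from as few as 3 counts in calf 3 (1.55, DESeq2 adjusted p = 0.0303).

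HTRA3, a secreted serine protease, had 16.1, 2.95, 1.18 and 6.70 CPM with shScramble and 8.87, 1.14, 0.811 and 2.69 CPM with shCreb5, falling in each calf (-1.05, DESeq2 adjusted p = 0.0218). MMP3, or stromelysin 1, fell from 135 ± 42.9 to 65.1 ± 26.5 CPM (mean ± SD, n = 4 calves; log2 fold change -1.06), and CSTB, the cysteine protease inhibitor cystatin B, fell as well (-1.06). The matrix metalloproteinase gene MMP19 rose (0.99, or 0.63 without calf 4), although calf 2 had only 4 and 8 counts of it, and so did ANPEP, the membrane aminopeptidase N (1.41). MMP2, MMP1 and ADAMTS4, which cleave collagens and aggrecan, had log2 fold changes of -0.41, 0.29 and 0.62 and did not pass in DESeq2. The lowest log2 fold change in the list of matrix proteases and inhibitors was -1.12, in a member not named here that did not pass either.

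**Figure D3:**
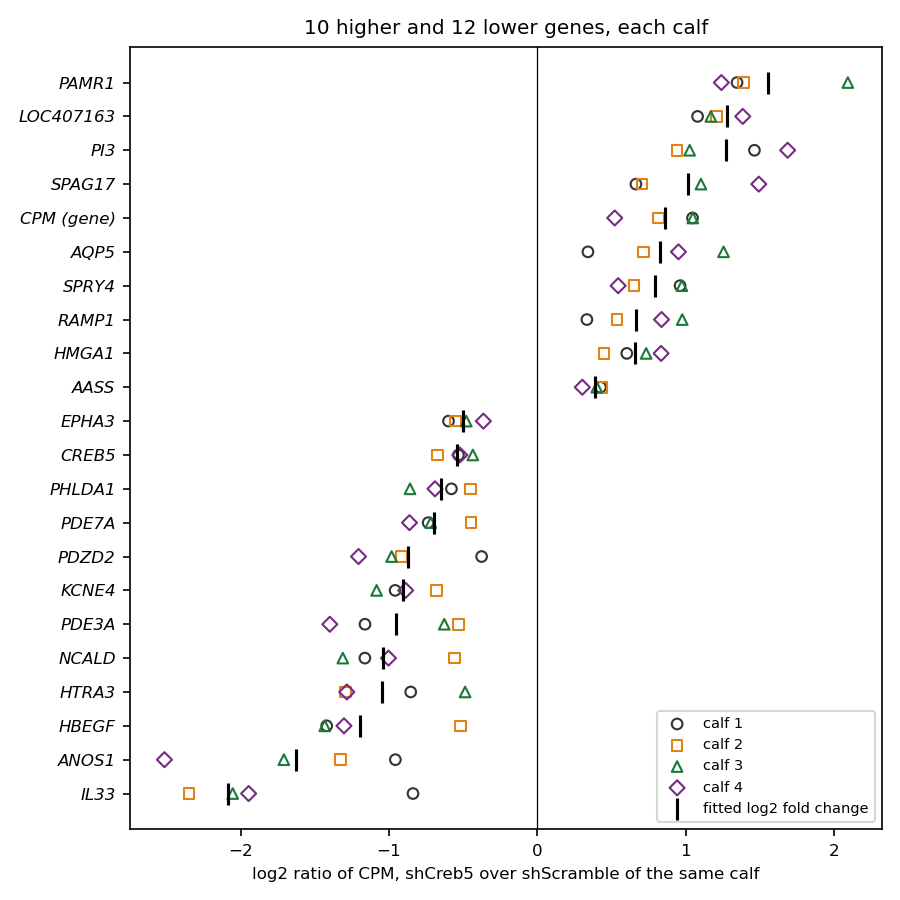
Log2 ratio of CPM, shCreb5 over shScramble, in each calf (symbols) with the fitted log2 fold change (bar) for 10 genes that rose and 12 that fell, taken from those with the smallest edgeR p in each direction. All 22 genes keep their side of 0 in 4 of 4 calves, which is a condition of the choice, and the calves are closest together for CREB5, AASS and EPHA3.

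Ligands of the EGF receptor, the receptor that TGFα itself activates, were lower: of 4 measured ligands and receptors, the 3 ligands had an unadjusted edgeR p under 0.05. HBEGF, a heparin-binding ligand, had 7.81, 5.18, 8.46 and 6.32 CPM with shScramble and 2.86, 3.58, 3.07 and 2.50 CPM with shCreb5. The highest shCreb5 library lay below the lowest shScramble library (log2 fold change -1.19, DESeq2 adjusted p = 0.00364). Of the other ligands measured, AREG and BTC were lower in 4 of 4 calves (-0.74 and -0.49, DESeq2 adjusted p 0.152 and 0.149), and the receptor gene ERBB3 was near 0 (0.00011). FGF2, a growth factor stored in the cartilage matrix, fell with no overlap between the groups (-0.74, from 477 ± 175 to 272 ± 23.9 CPM). PDGFD, a ligand of the PDGF receptors, fell by less (-0.55).

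Genes that ERK signaling is known to induce or that feed back on it were divided: of 10 measured, 7 were higher and 3 lower, 2 rose and 2 fell. HMGA1, an architectural chromatin protein, had 46.4, 52.9, 39.03 and 55.4 CPM with shScramble and 70.6, 72.3, 64.99 and 98.9 CPM with shCreb5. Its lowest level with shCreb5 was above its highest with shScramble (0.66, DESeq2 adjusted p = 4.07e-05). SPRY4, a Sprouty inhibitor of receptor tyrosine kinase signaling, rose from 7.43, 4.88, 3.75 and 7.51 CPM to 14.6, 7.71, 7.47 and 11.01 CPM (0.79). PHLDA1, in contrast, had 24.5, 21.2, 26.4 and 22.4 CPM with shScramble and 16.4, 15.5, 14.5 and 13.8 CPM with shCreb5, without overlap (-0.65, DESeq2 adjusted p = 0.0041). ERRFI1, an inhibitor of the EGF receptor kinase, fell (-0.38), and DUSP5, an ERK phosphatase, was higher in 4 of 4 calves but did not pass (0.64, DESeq2 adjusted p = 0.146). Outside this list, SOCS2, an inhibitor of cytokine receptor signaling, fell with a log2 fold change of -0.93 and the phosphatase gene PTPN2 with one of -0.53.

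In the TGFβ and BMP pathways, 12 of 17 measured ligands, receptors and inhibitors were lower and 5 higher (median log2 fold change -0.35). TGFBR1, the type I receptor of TGFβ, fell (-0.68), as did GDF10, a secreted member of the family (-0.98), while BMPER, a secreted BMP-binding protein, rose from 120 ± 39.7 to 184 ± 31.03 CPM (0.66). BMPR1A, a BMP receptor, was lower in 4 of 4 calves (-0.35, DESeq2 adjusted p = 0.243). Of 7 measured TGFβ and BMP target genes, 5 were lower and 2 higher. CCN2 fell (-0.69), and ID2 and SKIL were lower in 3 of 4 calves without passing (-0.75 and -0.30). In the Hippo list, 4 of 5 measured members were lower: the giant cadherin genes FAT4 and FAT1 (-0.59 and -0.38) and the YAP/TAZ target gene CCN2 fell, and the kinase gene NUAK1 was higher in 4 of 4 calves (0.61, DESeq2 adjusted p = 0.0502). None of the 10 measured Wnt pathway genes passed in DESeq2, and 7 of them were lower. They included the secreted Wnt inhibitors WIF1 (-1.68) and SFRP4 (-1.42) and the Wnt receptor gene ROR2 (-0.49), each lower in 4 of 4 calves. Of the 7 signaling genes that the study names, WIF1 alone did not pass in DESeq2 in condition A (adjusted p = 0.306); the study chose these genes on the same libraries. When TGFβ2 was present WIF1 was at -0.81 and passed in DESeq2 (adjusted p = 0.029), and the p of the difference between conditions was 0.324 in edgeR before adjustment.

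Several members of a list of axon guidance and cell adhesion genes fell, ANOS1 and PLPPR4 the most. ANOS1 encodes anosmin 1, an extracellular matrix protein that guides migrating neurons, and had 20.2, 64.5, 39.98 and 52.6 CPM with shScramble and 10.4, 25.6, 12.2 and 9.14 CPM with shCreb5. Every calf lost at least part of it, calf 4 the most and calf 1 the least (log2 fold change -1.63, standard error 0.24, DESeq2 adjusted p = 2.69e-07). EPHA3, an ephrin receptor, had 124, 9.60, 20.2 and 28.7 CPM with shScramble and 81.7, 6.52, 14.5 and 22.3 CPM with shCreb5, and fell by log2 ratios of -0.60, -0.55, -0.48 and -0.36 despite the far higher level of calf 1 (log2 fold change -0.50, DESeq2 adjusted p = 0.0127). NRP1, a co-receptor for semaphorins and VEGF, fell from 462 ± 188 to 293 ± 148 CPM (-0.74). The Slit receptor gene ROBO2 (-0.62), the heparan sulfate proteoglycan gene SDC1 (-0.63) and PLPPR4, a neuronal phospholipid phosphatase relative (-1.31), also fell.

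Of the 20 measured members of this list, 11 were lower and 9 higher, and 6 fell and 3 rose. LAMA5, a laminin chain of basement membranes, rose (1.38) by 0.28, 0.93, 1.97 and 1.91 in calves 1 to 4 on the log2 scale, so that calves 3 and 4 carried most of the increase. MDGA1, a membrane-anchored adhesion protein, rose (1.001), as did CD44. The ephrin genes EFNB1 and EFNB2 were higher in 4 of 4 calves without passing (0.49 and 0.44), and ROBO1 was lower in 4 of 4 (-0.54, DESeq2 adjusted p = 0.122).

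Among genes of cAMP signaling, to which CREB proteins owe their name, 8 of 11 measured were lower (median log2 fold change -0.36). Both phosphodiesterase genes that passed, whose products break cAMP down, were lower. PDE7A had 36.6, 18.3, 40.4 and 24.5 CPM with shScramble and 21.9, 13.4, 24.5 and 13.4 CPM with shCreb5 (-0.70, DESeq2 adjusted p = 0.00034). PDE3A had 10.7, 4.57, 28.5 and 19.8 CPM with shScramble and 4.75, 3.14, 18.4 and 7.45 CPM with shCreb5 (-0.95, DESeq2 adjusted p = 0.00443). Calves 3 and 4 had the higher levels of PDE3A in both groups, and the groups overlapped for both genes. PTGER2, a receptor for prostaglandin E2 that raises cAMP, fell (-0.74), and RAMP1, a subunit of the receptor for the peptide CGRP, rose from 15.9, 19.3, 6.78 and 9.67 CPM to 20.1, 28.1, 13.4 and 17.4 CPM (0.66). CREM, a relative of CREB that responds to cAMP, was lower in 4 of 4 calves (-0.82, DESeq2 adjusted p = 0.095), and CREB1 and ATF1 had log2 fold changes of -0.24 and -0.16, that of ATF1 being -0.086 without calf 3. Of the 24 members of the CREB, ATF and AP-1 list, 5 had a symbol and were measured. All 5 were lower, among them CREB5, the target of the shRNA, and CREB5 alone passed.

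KCNE4, an accessory subunit of voltage-gated potassium channels, had 30.4, 159.8, 384 and 152 CPM with shScramble and 15.6, 99.8, 181 and 82.03 CPM with shCreb5. It fell in each calf, with log2 ratios of -0.96, -0.68, -1.08 and -0.89, across a wide range of levels (log2 fold change -0.90, standard error 0.10, DESeq2 adjusted p = 7.81e-11). Of the 8 potassium channel subunits measured, 7 were lower (median log2 fold change -0.69) and KCNE4 alone passed. KCNQ5, KCNK1 and KCNQ1 were lower in 4 of 4 calves (-0.76, -0.65 and -0.85, the last -0.52 without calf 3). AQP5, a water channel, had 20.5, 2.54, 12.4 and 24.4 CPM with shScramble and 25.97, 4.23, 29.8 and 47.3 CPM with shCreb5, a rise in each calf (0.83, DESeq2 adjusted p = 0.00861).

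NCALD, SCG2, RIMS2 and DCLK1 belong to no list described here and were taken from the genes that fell. NCALD, the neuronal calcium sensor neurocalcin delta, had 5.44, 3.20, 6.33 and 6.46 CPM with shScramble and 2.37, 2.14, 2.49 and 3.17 CPM with shCreb5. Its groups did not overlap (-1.04, DESeq2 adjusted p = 0.018). SCG2, which encodes the secretory granule protein secretogranin II, had the largest decrease and also the most uneven one, with 0.467, 339, 68.3 and 24.9 CPM with shScramble and 0.0485, 152, 3.01 and 0.817 CPM with shCreb5. It fell in each calf, least in calf 2, where it was most abundant, and calf 1 had 11 counts with shScramble and 1 with shCreb5 (log2 fold change -3.17, standard error 0.69). RIMS2, a protein of vesicle release sites (-1.55), and DCLK1, a microtubule-binding kinase (-0.60), fell too.

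Of 12 measured inflammatory mediators 11 were lower with shCreb5, 4 of them in 4 of 4 calves, 3 fell and none rose, with a median log2 fold change of -0.89 that lay between -1.04 and -0.55 when any 1 calf was left out. IL33, an alarmin cytokine, had 0.425, 0.66, 8.01 and 3.06 CPM with shScramble and 0.194, 0.0498, 1.85 and 0.721 CPM with shCreb5. Calves 1 and 2 had at most 13 counts in a library, and the decrease in reads came from calves 3 and 4 (-2.09, DESeq2 adjusted p = 0.00502). CCL20, a chemokine, fell in each calf (-1.74), as did the complement factor gene CFB (-0.94, or -0.62 without calf 4). PTGS2, the prostaglandin synthase COX-2, was lower in 4 of 4 calves and IL6 in 3 of 4, without passing (-0.69 and -1.62, DESeq2 adjusted p 0.081 and 0.601). The summed level of the list was 373, 1429, 1402 and 988 CPM in calves 1 to 4 with shScramble and 429, 1123, 1233 and 409 CPM with shCreb5. It was thus higher with shCreb5 in calf 1, where IL6 and 5 other members were higher, and lower in the other 3 calves. Of the 5 measured interferon response genes, 4 were lower without passing, and IFI27L2 rose (0.82). IRF1 had a log2 fold change of -0.33 (-0.21 without calf 4), MX2 one of -1.68 that was -0.069 without calf 3, and OAS2 one of -0.38, none passing; the value of OAS2 was between -1.23 and 0.53 when any 1 calf was left out. In the aryl hydrocarbon receptor pathway 4 of 5 measured genes were lower: the receptor gene AHR was lower in 4 of 4 calves (-0.76, DESeq2 adjusted p = 0.0564), its target gene CYP1A1 fell (-0.89), CYP1B1 was lower in 4 of 4 (-0.33), and NQO1 was higher in 4 of 4 (0.58), the last 2 without passing.

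Genes of the actin cytoskeleton were mostly higher. Of 19 measured, 15 were higher and 11 of these had an unadjusted edgeR p under 0.05, but 2 rose and 3 fell in DESeq2. The members of the list together had 7263, 6868, 6314 and 6465 CPM in calves 1 to 4 with shScramble and 8787, 8046, 9333 and 10970 CPM with shCreb5. The groups did not overlap, and calves 3 and 4 gained more than calves 1 and 2. The list also holds VIM, whose product vimentin forms intermediate filaments, not actin filaments. Mean levels with shScramble and shCreb5 were 1108 and 2078 CPM for GSN and 2457 and 3386 CPM for VIM, so both weigh heavily in the sum. GSN, the actin-severing protein gelsolin, had 2317, 696, 589 and 830.2 CPM with shScramble and 3474, 900.2, 1364 and 2575 CPM with shCreb5, and rose in each calf (0.95, DESeq2 adjusted p = 0.00386). MYO10, a motor protein of filopodia, rose (0.37). KANK1, a regulator of actin at adhesions, was higher in 4 of 4 calves without passing (0.40). The 3 that fell were ASAP3, an Arf GTPase-activating protein (-0.62), RND1, an atypical small GTPase that loosens stress fibers (-1.32, or -0.87 without calf 4), and HEG1, a junctional membrane protein (-0.52).

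Subunits of the translation initiation factors eIF3 and eIF2 were higher by small steps. Of 13 measured, 12 were higher and 9 of them in 4 of 4 calves, with a median log2 fold change of 0.21. EIF3D rose from 191, 261, 250.2 and 182 CPM to 219, 332, 377 and 263 CPM (0.42), and EIF2S3 rose as well (0.38). EIF3H and EIF3F did not pass (0.31 and 0.25). Among cell cycle genes, 8 of 9 measured were lower (median log2 fold change -0.44) and none passed in DESeq2. Those with the smallest edgeR p were CCNA2, CCNB2, TOP2A and BUB1, at -0.60, -0.47, -0.46 and -0.46. In calf 1 the summed level of the cell cycle list was 93.0 CPM with shScramble and 94.1 CPM with shCreb5, whereas it was lower with shCreb5 in the other 3 calves.

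**Figure D4:**
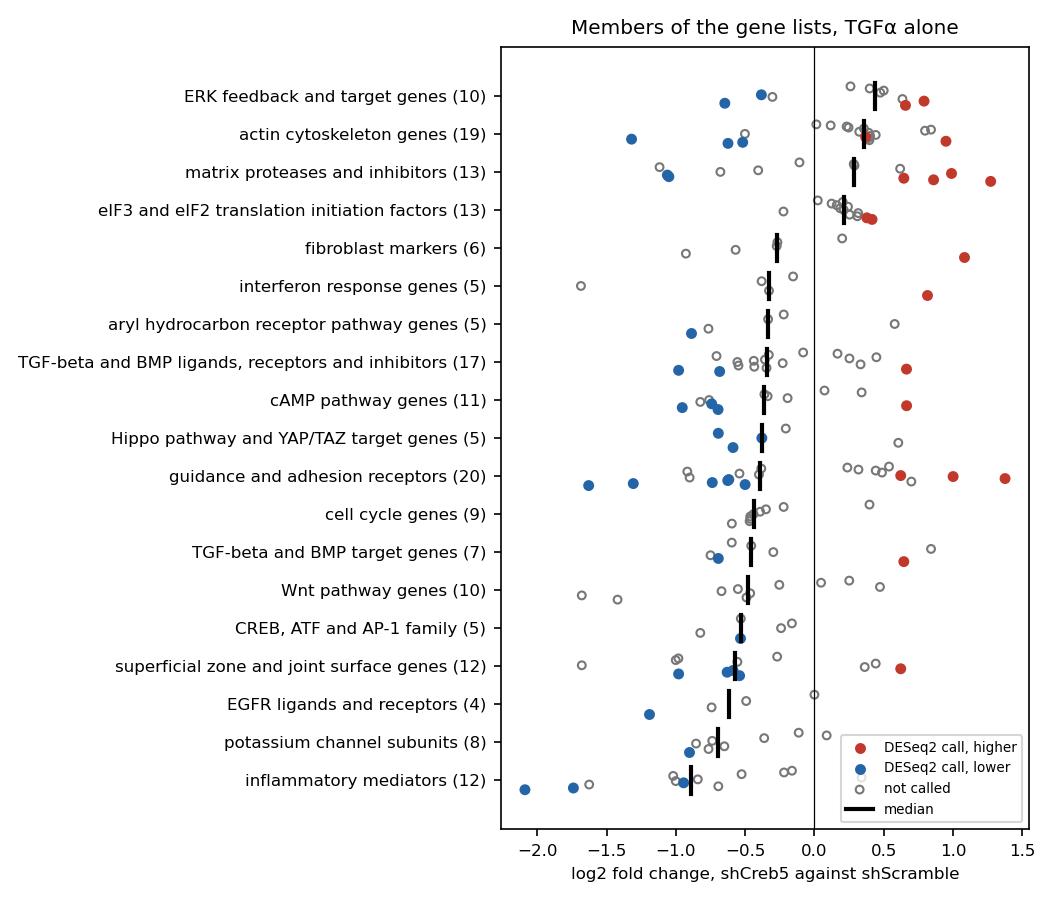
Log2 fold change of each measured member (circles) of the 19 gene lists with at least 4 measured members, with the median of each list (bar) and the number of members in parentheses. Red and blue circles are members that rose and fell in DESeq2; medians run from -0.89 for inflammatory mediators to 0.44 for ERK feedback and target genes.

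Of the remaining genes that fell, PDZD2, a protein with PDZ domains, had 20.6, 48.3, 27.3 and 26.8 CPM with shScramble and 15.9, 25.5, 13.8 and 11.6 CPM with shCreb5. Calf 1 lost the least of it (-0.87, DESeq2 adjusted p = 0.000951). OSTM1, a subunit of a lysosomal chloride transporter (-0.68), AGPAT5, an enzyme of phospholipid synthesis (-0.50), and MCFD2, a cargo receptor subunit of the secretory pathway (-0.51), fell. SRSF3, a splicing factor (-0.46), TF, the iron carrier transferrin (-1.22), and the membrane protein gene ITM2C (-0.48) fell as well.

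SPAG17, a protein of motile cilia, had 2.59, 3.81, 2.18 and 3.59 CPM with shScramble and 4.17, 6.27, 4.81 and 10.3 CPM with shCreb5. Its groups did not overlap (1.02, DESeq2 adjusted p = 0.0241). AASS, an enzyme of lysine breakdown, had 34.4, 55.3, 29.01 and 27.8 CPM with shScramble and 46.3, 74.7, 38.3 and 34.3 CPM with shCreb5. The increase was small and nearly equal in the calves (0.39, DESeq2 adjusted p = 0.0484). The insulin-like growth factor binding protein gene IGFBP6 (0.93), the RNA-binding protein gene RBMS2 (0.39) and RCN1, a calcium-binding protein of the endoplasmic reticulum (0.33), rose. Of the 7 called genes without a symbol, 6 were higher and 1 lower. ENSBTAG00000015493, with the largest log2 fold change, had at most 0.595 CPM with shScramble and 3.15, 0.299, 5.50 and 6.68 CPM with shCreb5, with calf 2 the lowest in both groups. ENSBTAG00000046604 rose without overlap between the groups, from 90.6, 68.96, 58.01 and 74.9 CPM to 141, 143, 312 and 299 CPM (1.53).

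Markers of cell types were checked as far as symbols allowed. Of 15 chondrocyte markers, 3 had an identifier, HAPLN1, COL11A1 and MATN1, and each was higher in 2 and lower in 2 of 4 calves, with log2 fold changes of -0.34, -0.29 and 0.12. The value of HAPLN1 was -0.065 without calf 3 and that of COL11A1 was -0.011 without calf 4. Their summed level was 2955 to 20095 CPM with shScramble and 2036 to 22037 CPM with shCreb5. The other 12 chondrocyte markers and all 7 smooth muscle and pericyte markers had no symbol here and were not examined. THY1, a fibroblast surface marker, rose (1.08), with log2 ratios of 0.68, 0.27, 1.49 and 1.82 in calves 1 to 4, and the other fibroblast markers did not pass: DPT, POSTN and COL5A1 had log2 fold changes of -0.93, -0.57 (-0.33 without calf 2) and -0.27 (-0.11 without calf 4). The 6 measured fibroblast markers together had 4130 to 6505 CPM with shScramble and 3445 to 5230 CPM with shCreb5.

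SPP1, which encodes osteopontin and stood alone for the hypertrophic and bone markers, was higher in 4 of 4 calves (0.63, DESeq2 adjusted p = 0.0877). Calf 2 hardly differed, with 1500 CPM of SPP1 with shScramble and 1528 CPM with shCreb5. Of the markers of blood, endothelial and fat cells, CD68 of macrophages and VWF of endothelium were higher in 4 of 4 calves (0.86 and 0.72, DESeq2 adjusted p 0.131 and 0.118). VWF was nearly level in calf 1 (log2 ratio 0.06). CD68 was at 0.55 without calf 3. The macrophage marker CD14 was at 0.08 (0.017 without calf 3), the endothelial marker TEK at -0.40, and the fat cell marker FABP4 at 1.17 (0.55 without calf 4). The 2 macrophage markers together had 24.1 to 44.7 CPM with shScramble and 25.4 to 99.3 CPM with shCreb5, and the 2 endothelial markers 8.76 to 15.6 and 11.8 to 25.3 CPM. The part of these markers in the changes above was not tested.

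The calves did not contribute equally. Over all 12922 genes the median size of the log2 ratio between the libraries of a calf was 0.18 in calf 1, 0.15 in calf 2, 0.25 in calf 3 and 0.25 in calf 4. Over the 79 called genes it was 0.53, 0.55, 0.89 and 0.95. The largest change was in calf 3 or calf 4 for 65 of the 79 genes, 26 in calf 3 and 39 in calf 4. For all tested genes these calves held the largest change in 34.0% and 34.6%. Among the 33 genes that rose, calf 1 had the largest change in 0. CREB5 itself did not follow this order, with log2 ratios of -0.53, -0.67, -0.43 and -0.52 in calves 1 to 4.

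Each gene was then set beside its change in the presence of TGFβ2, where DESeq2 called 55 genes (0.417%) and edgeR 0. The 2 comparisons have no library in common but share the calves and the infections. Of the 77 called genes that could be tested in condition AB, 72 had the same sign there and 15 were also called there by DESeq2, among them ANOS1 (-1.63 with TGFα alone and -1.66 with TGFβ2 added), MMP3 (-1.06 and -1.36), NRP1 (-0.74 and -1.13), GDF10 (-0.98 and -1.38), TGFBR1 (-0.68 and -0.68) and GSN (0.95 and 0.75). The difference between the 2 effects was tested as an interaction over all 16 libraries. Of 13372 genes, edgeR called 0, with 571 (4.27%) at an unadjusted p under 0.05, and DESeq2 called 10 (0.0514% of the 19454 genes with an adjusted p), none of them among the 79. None of the 79 genes is thus shown to respond in TGFα alone only.

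Of the 79 genes, 12 had an unadjusted interaction p under 0.05 in edgeR. For 9 of these 12 the value was closer to 0 when TGFβ2 was present. PTGER2 was at -0.74 with TGFα alone and 0.21 with TGFβ2 (p of the difference in edgeR 0.00105 before adjustment). SPRY4 was at 0.79 and -0.06, SRSF3 at -0.46 and 0.04, SOCS2 at -0.93 and -0.12, BMPER at 0.66 and 0.06, RAMP1 at 0.66 and -0.05, PDE3A at -0.95 and -0.24, LAMA5 at 1.38 and 0.25, and SCG2 at -3.17 and -0.74. For CREB5 the change was larger with TGFβ2 (-0.54 and -0.96), as it was for PLPPR4 (-1.31 and -2.49) and HEG1 (-0.52 and -0.84). Of the elafin genes, PI3 was at 1.27 and 0.95 and LOC407163 at 1.28 and 0.98, with interaction p-values of 0.409 and 0.364 in edgeR before adjustment.

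**Figure D5:**
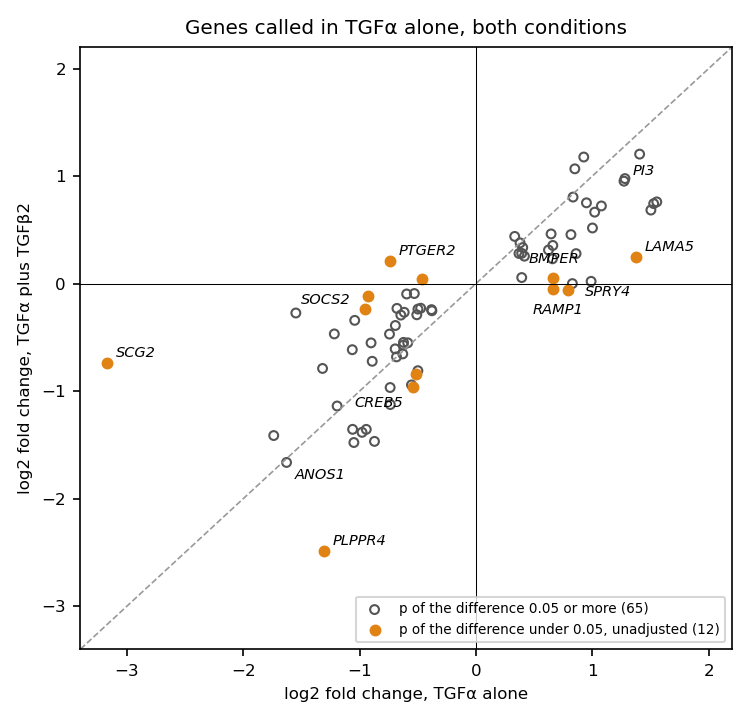
Log2 fold change of shCreb5 against shScramble with TGFα alone (horizontal axis) and with TGFα plus TGFβ2 (vertical axis) for 77 genes called in TGFα alone. The 12 orange points have an unadjusted edgeR p under 0.05 for the difference between conditions, and 5 genes, PTGER2 and SPRY4 among them, lie across 0 from their value in TGFα alone.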

How the data were processed

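RNA was extracted with Trizol and made into KAPA mRNA HyperPrep libraries, sequenced as single-end reads on a NextSeq 500. Transcripts were quantified by the authors with Salmon in bcbio-nextgen against UMD3.1 and summed to genes with tximport, and the deposited values are estimated counts per gene as whole numbers, not scaled for depth. The count table was used as deposited, and no library was left out. No 2 libraries within a group were copies (over 12 pairs, chi-square divided by its degrees of freedom was 81.3 to 360.6). Which libraries had lower RNA integrity or which sequencing kit is not given in the sources used here.

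Groups and calf numbers came from the labels. Genes passing filterByExpr were tested with edgeR 4.0.16 in R 4.3.3 (TMM, quasi-likelihood, calf as a block, Benjamini-Hochberg), and with DESeq2 1.42.0 with the calf as a covariate; limma 3.58.1 served as an alternative. The scripts were tested on simulated data. Libraries with the same number come from the same animal: their deviations from the group means correlated at 0.32 to 0.85 over 12922 genes, those of different calves at -0.50 to 0.22. CPM use TMM factors, log2 CPM a prior count of 2.

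Symbols came from identifier columns of the supplementary tables at hand, in part, and from RefSeq by gene identifier. Of positions, only the order of the genes next to PI3 in RefSeq was used. Full values are given for the 12 genes of each direction with the smallest edgeR p among those with a symbol, called by DESeq2 and moving one way in 4 of 4 calves, for CREB5 and PRG4, and values for up to 4 members of each of 25 gene lists; 2 genes of the first set are not reported here. The comparison, the lists and this rule were chosen with earlier results of these data known, so counts within the lists are descriptions and no list was tested.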

Additional observations from a re-analysis of the deposited data

Results flagged for a closer look

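The values of the 24 genes chosen by edgeR p and of the genes the study names were examined for a calf that lay apart from the other 3 of its group, by Dixon's test at 95%. Of 92 sets of 4 values, 2 had such a calf, where chance alone gives about 4.6. The log2 ratio of HBEGF was -0.52 in calf 2, while the other 3 calves lay between -1.43 and -1.30. Carboxypeptidase M had a level of 13.97 (CPM) in calf 1 with shScramble, while the other 3 calves had 24.3 to 26.8. Both genes changed in the same direction in 4 of 4 calves.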

How the results depend on the processing

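With 4 calves, edgeR called 0 genes in condition A under RLE normalization, without a low-count filter and with at least 10 counts in every library. It also called 0 with robust estimation and in 1 fit of all 16 libraries. The same held for edgeR's newer dispersion method, chosen after seeing the data because the planned older method is the package's default. The limma-voom test, run in place of edgeR's, called 0 genes as well. DESeq2 on the same counts called 79, and it also gave CREB5 (-0.54) and PRG4 (-0.63) an adjusted p under 0.05, which edgeR did not. With each calf left out edgeR called 0 to 1 genes, the 1 being SCG2 (-4.64 without calf 2). Leaving out a calf moved CREB5 between -0.58 and -0.50 and PRG4 between -0.69 and -0.58. The pairing by calf mattered most. With the block kept, 1144 genes had an unadjusted edgeR p under 0.05 with all calves and 491 without calf 3. With no replicate block, edgeR called 0 genes, 170 genes had an unadjusted edgeR p under 0.05, and DESeq2 called 2 genes. CREB5 was then at -0.53 and PRG4 at -0.57. DESeq2 called 81 genes with TMM factors, 75 among genes passing filterByExpr and 85 in 1 fit of all 16 libraries, of which 77, 74 and 36 were among the 79, and 21 to 213 with a calf left out. All 79 kept their sign in each of these fits. For the difference between conditions, DESeq2 called 10 genes against 0 by edgeR, and edgeR called 0 genes with no replicate block and without any 1 calf. The cause of the difference between the tests was not tested.

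Of the single genes that were put through these alternatives, MATN1, ERBB3 and OAS2 changed sign. MFGE8, VIM, GDF5, CLU, MMP1, MMP2, ADAMTS4, EFNB1, EFNB2, ROBO1 and LOC100850808 are also named above but were not put through them singly. Whether these genes keep their sign was not tested. MATN1 (0.12) was at -0.0040 in DESeq2, -0.0912 in the fit of all 16 libraries and at -0.25 to 0.65 with a calf left out. ERBB3 (0.00011) was at -0.0091 in DESeq2, -0.00348 with RLE, -0.00148 without the filter, -0.029 in the fit of all 16 libraries and -0.21 to 0.13 with a calf left out. OAS2 (-0.38) was at -1.23 to 0.53 with a calf left out.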
